A study of Homo sapiens with 9 samples.

Results

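The genes described are the 10 subunits of the endoplasmic reticulum (ER) membrane protein complex, EMC, out of 58336 genes in a table of nascent transcription from MEL624, an established human melanoma cell line. The members were taken as a list of named subunits, EMC1 to EMC4, MMGT1 (also called EMC5) and EMC6 to EMC10, and the list was picked for study from measured values: EMC10 had been seen to be nearly silent in 1 knockout clone. The values of EMC10 in that clone are therefore a description of why the complex is shown, and support nothing. All 10 members had a mean of at least 10 normalized counts over the groups, as did 17149 genes of the table, and only those genes were compared.

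The study asked how transcription differs in cells without PCIF1, the methyltransferase that acts on a cap-adjacent adenosine of mRNA. PRO-seq, which labels the RNA made by engaged polymerases in permeabilized cells, was run on 9 libraries. Control cells were wild type and carried a random guide RNA; the other groups were 2 clones with PCIF1 knocked out, called clone 1 and clone 2, each a single clone, so that the knockout and whatever else sets a clone apart cannot be told apart. Each group had 3 biological replicates, and the libraries held 1000000 cells with 40000 Drosophila cells as spike-in. The authors' table gives 1 mean per group, so no value below has a standard deviation, and no test was possible. Sequencing averaged 50000000 mappable reads per sample, per the series' design text, and no depth is given for a single library. The comparisons of clone 1 and clone 2 with control use 1 and the same control mean, so they are not independent of each other. Of 8 markers of the melanocyte lineage, 2 (MITF and PMEL) passed the floor of 10 counts, TYR was listed at 0 in all 3 groups, and SOX10 was listed at 0 in control and clone 1 and at 6.08 counts in clone 2. In the order control, clone 1, clone 2, PMEL had 48.4, 21.3 and 23.8 counts (log2 ratios to control of -1.15 and -0.997) and MITF had 168.5, 142.0 and 259.2, so these lineage markers differed between the groups; their part in the results was not tested. Of 6 keratinocyte and fibroblast markers, 2 passed the floor: PDGFRB with 110.7, 75.5 and 99.99 counts and COL1A1 with 17.97, 27.8 and 18.4. Below the floor, KRT14 was listed at 0 in all groups. LUM was listed at 0.692, 7.91 and 7.10 counts, COL1A2 at 1.45, 0.335 and 0.335, and KRT5 at 0, 0 and 0.343. In bulk cultures like these, a lower value in fewer cells and a lower value in every cell cannot be told apart.

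The EMC sits in the ER membrane and helps newly made membrane proteins insert their membrane-spanning segments, among them tail-anchored proteins and the first segments of some multi-spanning receptors and transporters. EMC3, a relative of the Oxa1 insertases, and EMC6 form the core that handles the segment within the membrane, together with MMGT1 and EMC4. EMC2 is a cytosolic scaffold, on which the related proteins EMC8 and EMC9 occupy the same place as alternatives. EMC1, EMC7 and EMC10 have domains in the ER lumen. The subunits work as an assembly, so their genes are described side by side.

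EMC10 (ENSG00000161671) lies on the plus strand of chromosome 19, 50476400 to 50490871 (GRCh38). Its upstream sequence is shown because EMC10 starts here on one strand, within the span of GARIN5A on the other. GARIN5A, whose values are given further on, runs from 50466785 to 50476848, so its start lies past the end of the stretch shown. The stretch is the plus strand of chr19:50476257-50476416 from the RefSeq table (GRCh38.p14), from the first base of the promoter window to just past the first EMC10 base in GENCODE. Capitals mark each TGACGTCA, the palindromic site known as the cAMP response element, which ATF and CREB family factors can bind.

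EMC10: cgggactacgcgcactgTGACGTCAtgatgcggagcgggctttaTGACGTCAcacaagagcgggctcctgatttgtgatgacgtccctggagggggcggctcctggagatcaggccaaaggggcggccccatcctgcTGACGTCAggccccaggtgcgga

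The 3 copies begin 233, 206 and 113 bases before the RefSeq start of EMC10 at 50476507. The GENCODE start at 50476400 lies 107 bases earlier, and the third copy, at 50476394 to 50476401, spans it. RefSeq promoter windows of 300 bases (250 before and 50 after a start) were at hand for 8 members, and not for EMC2 and MMGT1. At least 1 TGACGTCA was present in 649 of all 35116 windows (1.85%), at least 2 copies in 21 and 3 copies in 1, that of EMC10; none of the other 7 members' windows held it. The site is the same on both strands and its copies do not overlap. It was searched for after the sequence had been read, a match is no evidence that a factor binds, and windows of 1 gene with several starts can overlap. The EMC10 window held 29 CpG dinucleotides, a number that 24.2% of windows reach, against a median of 14.0. Of the 8 members' windows, 7 held more CpG than that median, from 20 in EMC9 to 43 in EMC8, and EMC4 had 14. The GC box GGGCGG, counted on both strands, occurred in 6 of the 8 and in 45% of all windows.

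EMC10 was close to absent in clone 1 and present in clone 2. Control cells had a mean of 130.4 normalized counts, clone 1 had 0.860 and clone 2 had 78.5. Clone 1 alone was nearly silent, and clone 2 lay between it and control, at 60.2% of the control value, so both clones were below control. The ratio of control to clone 1 was 151.6 as deposited, and rounding of the deposited values to 0.01 allows 142.6 to 161.8. That range holds rounding alone. The clone 1 mean times 3 replicates is 2.58 normalized counts, so the size of the ratio is far less certain than the range. With a pseudocount of 1, which pulls ratios of low values towards 1, the log2 ratio to control was -6.14 in clone 1 and -0.73 in clone 2, and that of clone 2 to clone 1 was 5.42. Its ratio of clone 1 to control ranked 4 from the bottom among the 17149 compared genes. Among the 11917 of them with a mean of at least 50 counts it ranked 1. EMC10 reached these mean counts through control and clone 2 alone. The list was picked for the EMC10 value in clone 1, so the ranks are a description and support nothing. A ratio as far from 0 as that of EMC10 in clone 2 was seen at 10.8% of compared genes.

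The other 9 subunits had close to the control level in both clones. Of the 10 members, 1 was at least 2-fold lower in clone 1, EMC10 itself, beside 1.32% of all compared genes (3.59% were at least 2-fold off in either direction). In clone 2, 0 of 10 were at least 2-fold off, beside 5.23%. Between the clones, 1 member (again EMC10) had at least 2-fold more in clone 2, beside 1.05% of genes. Within 1.5-fold of control were 9 of 10 members in clone 1 and 9 of 10 in clone 2, with EMC10 the exception in both. The shares of all compared genes were 88.1% and 83.0%, so that a majority of genes behaved like these 9. Their median log2 ratio was 0.03 in clone 1 and 0.06 in clone 2, against -0.00 and -0.00 over all compared genes. In place of replicate error, the spread between the clones can serve as a gauge: for 6631 genes with 50 to 200 counts, the central 95% of log2 ratios between clone 2 and clone 1 ran from -0.50 to 0.63, and for 4817 genes with 200 to 1000 counts from -0.35 to 0.53. It holds real differences between the clones. All 9 subunits had ratios inside it in the comparison of the clones, where EMC3 was the highest at 0.56.

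**Figure D1:**
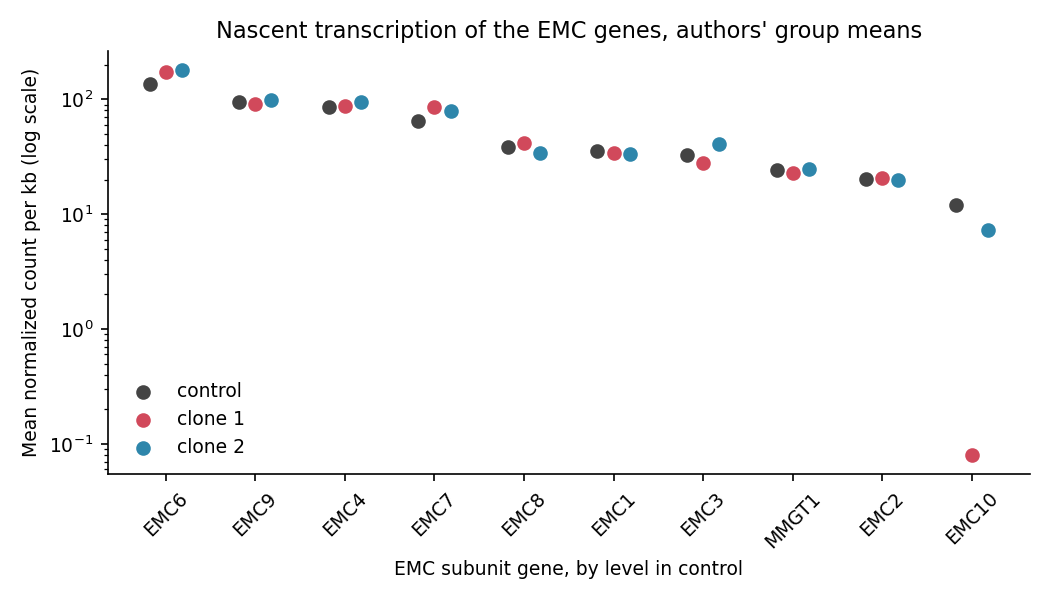
Mean normalized count per kb of gene length (log axis) for each of the 10 EMC genes, ordered by level in control; each point is the authors' mean of 3 replicates for control, clone 1 or clone 2, with no error available. The 3 points of each gene lie together except at EMC10, where clone 1 is at 0.08 against 12.1 in control and 7.3 in clone 2.

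Levels between genes are compared per kb of the gene length in the table. EMC6 had the highest control level, 137 normalized counts per kb, followed by EMC9 at 94.8, EMC4 at 84.9 and EMC7 at 65.1. A middle group held EMC8 at 38.8, EMC1 at 35.8 and EMC3 at 32.8, and MMGT1 (24.04), EMC2 (20.1) and EMC10 (12.1) were lowest. Set among 12525 compared protein-coding genes, EMC6 was at percentile 93.4 and EMC10 at percentile 22.4. The 4 highest and the 3 lowest kept their places in each clone. The middle group did not: EMC3 was the lowest of the 3 in control and clone 1 and the highest in clone 2. The listed length is not the span of a gene: it came to 8.3% of the GENCODE span at EMC2, 74.3% at EMC10 and 89.7% at EMC6. Genes with a short listed length tended to have higher values per kb. The Spearman correlation of that length and level was -0.56 over the 10 members and -0.27 over the protein-coding genes. These are descriptions across genes of 1 group mean, and the length is itself the divisor of the level.

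Counts of the other members are given in the order control, clone 1, clone 2. In the membrane core, EMC3 (ENSG00000125037, chromosome 3, 9962682 to 10011202) had 140.2, 119.0 and 175.3 counts, so control lies between the clones. EMC6 (ENSG00000127774, chromosome 17, 3668812 to 3669668) had 105.3, 132.4 and 138.4 counts, above control in both clones (log2 ratios of 0.33 and 0.39). Ratios at least that far from 0 were seen at 29.8% and 32.4% of genes. MMGT1 (ENSG00000169446, chromosome X, 135960588 to 135974029) had 89.9, 85.6 and 92.9 counts. EMC4 (ENSG00000128463, chromosome 15, 34225013 to 34230156), the member with the most counts, had 378.5, 392.7 and 423.0. For MMGT1 and EMC4 every ratio to control was between -0.07 and 0.16.

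Among the cytosolic subunits, the scaffold gene EMC2 (ENSG00000104412, chromosome 8, 108443601 to 108489196) lay nearest to control, with 75.8, 77.4 and 74.8 counts. Of the alternative subunits, EMC8 (ENSG00000131148, chromosome 16, 85771758 to 85799608) had 155.8, 166.7 and 137.5 counts. EMC9 (ENSG00000100908, chromosome 14, 24138959 to 24141591) had 150.5, 143.6 and 156.5. EMC8 was thus above control where EMC9 was below it, and the reverse in the other clone, but the largest of these log2 ratios was -0.18.

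Among the subunits with lumenal domains, EMC1 (ENSG00000127463, chromosome 1, 19215660 to 19251552) had 344.0, 329.6 and 319.6 counts, a little below control in both clones. EMC7 (ENSG00000134153, chromosome 15, 34084017 to 34101862) had 100.1, 131.0 and 122.5 counts, above control in both, with log2 ratios of 0.38 and 0.29. EMC10 was the single lumenal subunit, and the single subunit of any kind, that was nearly silent in a clone.

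The compared genes around EMC10 did not share its low value in clone 1. The 20 nearest compared genes, 10 on each side and reaching 0.598 Mb to one side and 0.644 Mb to the other, had a median log2 ratio of -0.07 in clone 1 (from -0.47 to 0.79) and -0.09 in clone 2 (from -0.49 to 1.38). Of the compared genes whose spans come within 100 kb of EMC10, the DNA polymerase subunit gene POLD1 had 163.8, 133.6 and 125.9 counts. The nuclear receptor gene NR1H2 had 143.5, 121.0 and 146.2. The deubiquitinase gene JOSD2, the compared gene that starts nearest, had 89.7, 87.4 and 84.6, and the transcription factor gene SPIB had 39.7, 33.6 and 28.0. Among genes below the floor of 10 counts in that range, GARIN5A, LRRC4B and ENSG00000268518 were also lowest in clone 1, and MYBPC2 and ASPDH were highest there. GARIN5A starts 448 bases from EMC10 on the opposite strand and shares 449 bases with it. It was listed at 7.9 counts in control, at 0 in clone 1 and at 4.1 in clone 2. LRRC4B was listed at 4.21, 0 and 1.34 counts, and ENSG00000268518, which lies within EMC10, at 1.80, 0.338 and 1.40. No fold is given at these counts. The strand setting of the counting is not stated, so reads of the shared bases cannot be assigned to one of the genes.

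**Figure D2:**
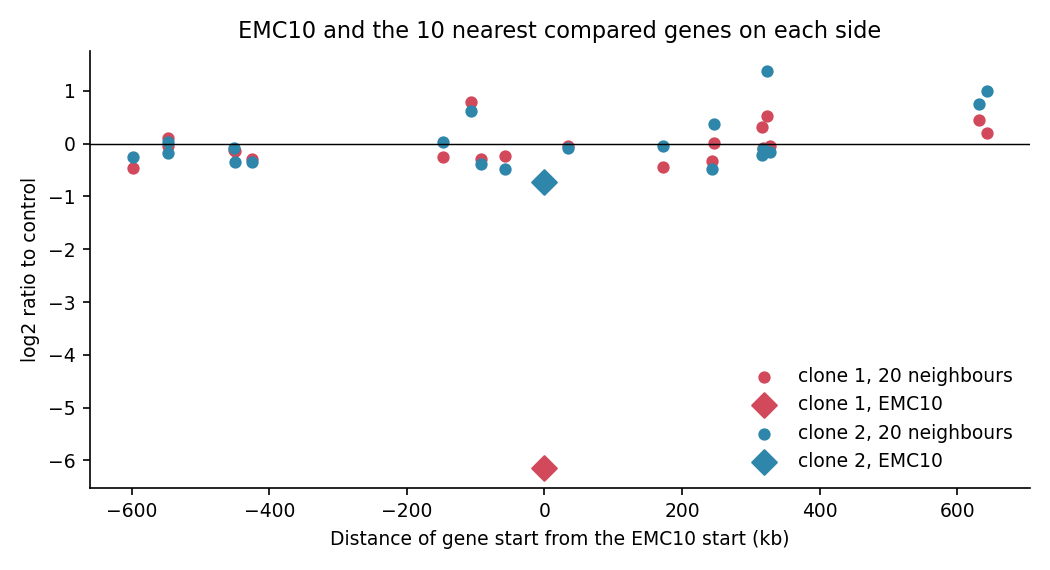
Log2 ratio to control of EMC10 (diamonds) and of the 10 nearest compared genes on each side (circles) against the distance of each gene's start from that of EMC10 in kb, for clone 1 and clone 2. EMC10 in clone 1 is at -6.14, while its neighbours in clone 1 lie between -0.47 and 0.79.

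An opposite-strand gene starting within 1 kb is a feature of 7 of the 10 members, beside 31.2% of the 12525 compared protein-coding genes. Besides GARIN5A, 0 of the 6 partners was at least 2-fold off in a clone, which is also true of most compared genes (3.59% and 5.23% were that far off in clone 1 and clone 2). MRTO4, a ribosome assembly gene facing EMC1, had 634.2, 596.8 and 631.9 counts. TAX1BP3, facing EMC6, had 283.2, 274.7 and 300.6, and PGBD4, facing EMC7, had 186.4, 183.4 and 229.0. The cytochrome oxidase gene COX4I1, facing EMC8, had 403.4, 289.3 and 312.2 counts, log2 ratios of -0.48 and -0.37, while EMC8 was at 0.10 and -0.18. The spans of 8 members, EMC10 among them, are overlapped by a gene of the opposite strand, so their counts carry the uncertainty over strand described for EMC10. The share over all compared genes was not counted. With same-strand genes included, 9 members are overlapped, and a strand setting would not resolve those cases. ENSG00000206567, which overlaps EMC3 on the same strand and starts 7 bases from it, had 8.3, 5.9 and 5.8 counts.

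Several members differed from the median of the genes around them. EMC2, EMC3 and EMC7 nonetheless lay within the range of their neighbours in both clones. EMC6 lay outside, above its highest neighbours at 0.16 in clone 1 and 0.22 in clone 2. EMC2, on chromosome 8, had log2 ratios of 0.03 and -0.02, while the 20 genes nearest to it had medians of 0.54 in clone 1 (18 of 20 above control) and 0.63 in clone 2 (17 of 20). Genes are sparse there, and the 20 reach 3.96 Mb to one side and 7.37 Mb to the other. Its head-to-head partner, the translation factor gene EIF3E, had 370.8, 433.3 and 545.8 counts, log2 ratios of 0.22 and 0.56. EMC3, on chromosome 3, was at 0.32 in clone 2, below the median of 0.71 of its 20 neighbours, 19 of which were above control; in clone 1 that median was -0.01. The antisense gene EMC3-AS1, which overlaps EMC3, had 290.1, 286.5 and 458.0 counts. Set against its neighbours' median, EMC3 was thus lower in clone 2 (a difference of -0.38), although it was higher against control. EMC6 and EMC7 stood the other way, above their neighbours' medians by 0.40 and 0.32 in clone 1 and by 0.55 and 0.27 in clone 2.

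**Figure D3:**
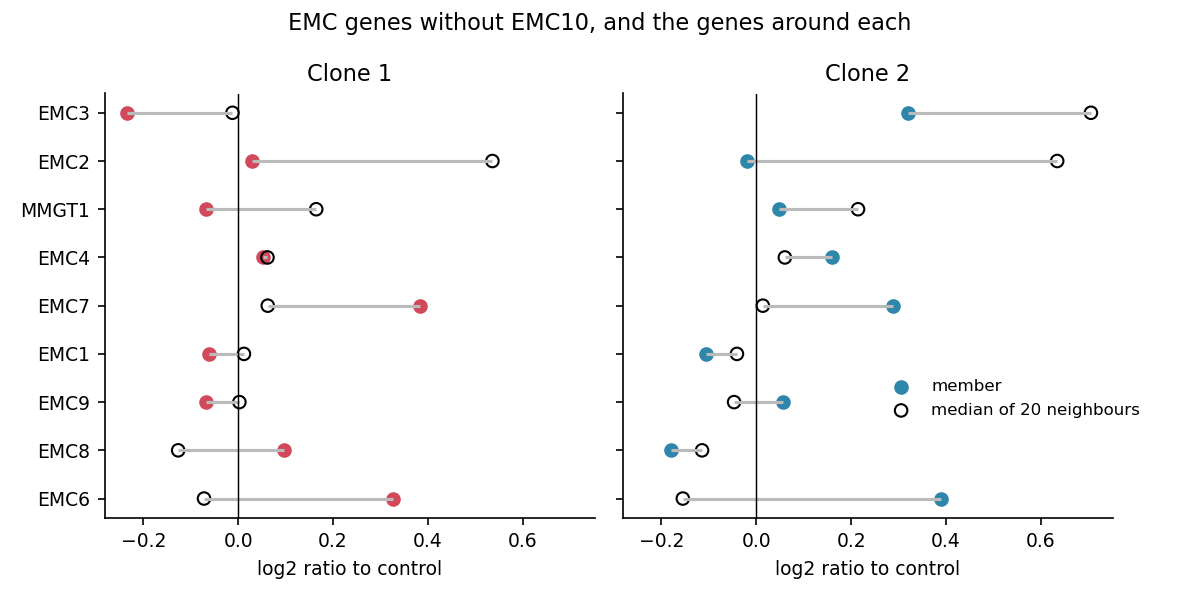
Log2 ratio to control of the 9 EMC genes other than EMC10 (filled circles) and the median of the 20 nearest compared genes of each (open circles), in clone 1 and clone 2. EMC2 lies left of its neighbour medians (0.54 and 0.63) and EMC6 lies right of its own (-0.07 and -0.15) in both clones.

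The other machinery that brings proteins into the ER membrane was compared in 6 lists of 52 genes, of which 49 were compared. NOMO1, NOMO2 and NOMO3, near-identical copies whose reads may not be assignable, were not, with at most 2.65 counts. At least 2-fold off were 0 of the 49 in clone 1 and 0 in clone 2, beside the 3.59% and 5.23% of all genes given above. Their median log2 ratio was 0.02 in clone 1 and 0.05 in clone 2. In the GET pathway, which delivers tail-anchored proteins, the medians of 7 genes were -0.12 and 0.15, and the receptor gene CAMLG had 183.7, 237.9 and 308.7 counts. In the translocon for multi-spanning proteins, 5 compared genes had medians of -0.15 and 0.02, and TMCO1, another Oxa1 relative, had 238.5, 303.5 and 326.3 counts.

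The 12 genes of the SEC61 channel and its partners had medians of 0.12 and 0.07; SSR3, of the translocon-associated protein complex, had 881.5, 1340.3 and 1203.0 counts. The 8 genes of the signal recognition particle and its receptor had medians of 0.05 and -0.01, with SRPRB at 141.5, 186.5 and 184.1 counts. The 12 genes of the oligosaccharyltransferase, which adds N-glycans, had medians of 0.01 and 0.10, with TUSC3 at 294.4, 399.4 and 441.9, and the 5 signal peptidase genes had medians of -0.10 and -0.07, with SPCS2 at 68.9, 59.1 and 65.7. The gene named in each list is the one with the largest mean ratio in size, so it does not stand for its list. None came near the value of EMC10 in clone 1: over these 49 genes the lowest log2 ratio in that clone was -0.47.

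**Figure D4:**
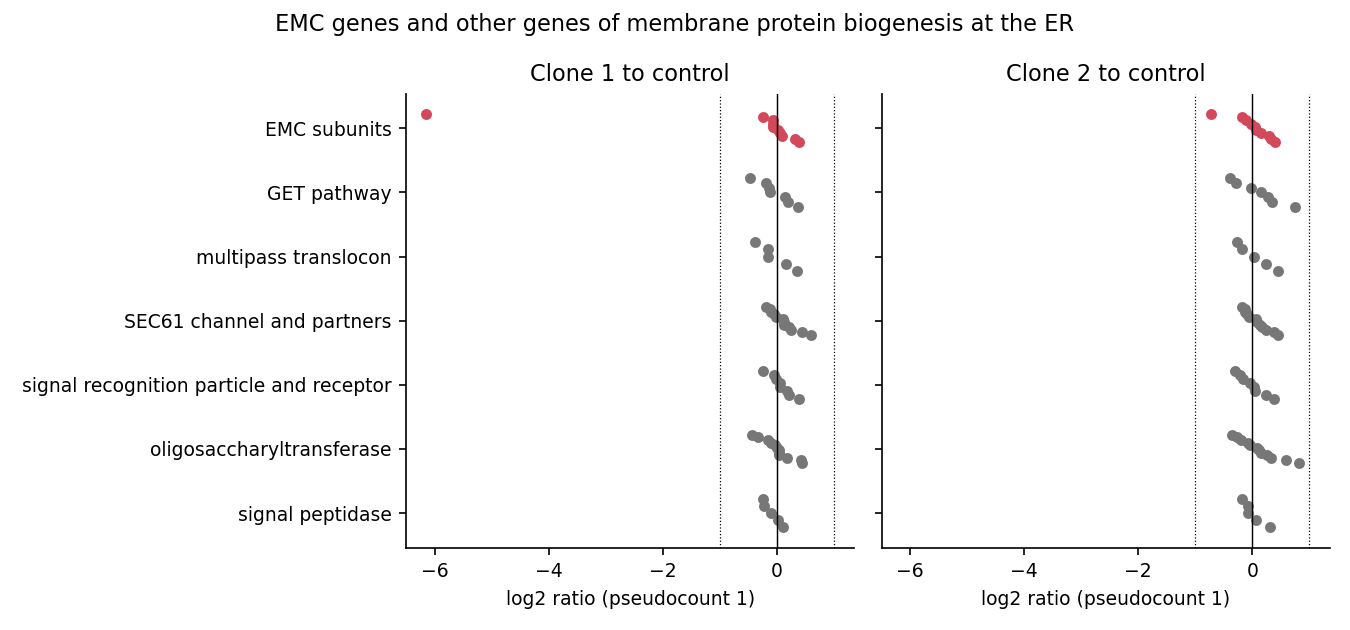
Log2 ratio to control, with a pseudocount of 1, of each compared gene of the EMC (red) and of 6 lists of other genes for membrane protein biogenesis at the ER (grey), in clone 1 and clone 2; dotted lines mark 2-fold. EMC10 in clone 1, at -6.14, is the one point beyond them.

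Genes with a pattern like that of EMC10 were looked for in 2 ways. By distance in the log2 ratios of both clones to control, among genes with at least 50 counts, the nearest was the zinc finger gene ZNF556 with 69.0, 2.0 and 135.2 counts (distance 2.31), followed by the adhesion gene CADM1 with 202.3, 3.9 and 23.5 (2.45), FAM9B with 213.1, 34.7 and 107.8 (3.57), the unnamed gene ENSG00000248837 with 95.3, 10.8 and 251.0 (3.76) and the transporter gene ABCC2 with 348.9, 65.9 and 62.2 (4.14). None is close: ZNF556 had log2 ratios of -4.56 and 0.96 where EMC10 had -6.14 and -0.73, and CADM1 and ABCC2 were also low in clone 2. A second criterion, set after the values were seen, took genes at least 8-fold lower in clone 1 than in both control and clone 2, with these within 2-fold of each other. It was met by 9 of 17149 genes (0.0525%), and by 3 (0.0175%) with the clones exchanged.

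EMC10 had the highest control count of those 9. ZNF556 was next, and the other 7 had at most 30.2 counts in control. They were WBP2NL (30.2, 0 and 56.7 counts), MS4A13 (29.2, 0.3 and 39.6), the guanine exchange cofactor gene ELMO1 (29.1, 0.3 and 37.6), the translation termination factor gene GSPT2 (20.9, 0.6 and 26.6), the interferon regulatory factor gene IRF7 (17.9, 0.3 and 15.7), and the noncoding genes MAFTRR (15.8, 0.4 and 27.1) and LINC01694 (14.2, 0.8 and 19.5). EMC10 and IRF7 were the 2 of the 9 with less in clone 2 than in control. The 3 genes low in clone 2 alone were the histone gene H1-1 (59.8, 30.2 and 1.7), PRUNE2 (27.8, 18.2 and 0.3) and ZNF69 (15.3, 18.6 and 0.7). Whether any of these values was shared by the 3 replicates of a group was not tested, since the table holds their mean.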

How the data were processed

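The authors deposited 1 table with a signal per gene: per the file headers, the mean normalized count per kb over the replicates of a group, beside a gene length in bases (the table's other value). Tools listed in the submitters' processing notes, without roles, were featureCounts, DESeq2, Bowtie 1.2.2 and cutadapt 1.14, and the builds were GRCh38.p12, hg38 and dm3. Which feature was counted, on which strand, and whether the spike-in set the scale is not given in the sources used here. Its header has 6 names over rows of 5 cells, and the symbol is taken as the missing cell. Symbols and positions came from GENCODE release 44 (57754 of 58336 identifiers matched), promoters from RefSeq (GRCh38.p14). The deposited signal was multiplied by length in kb; log2 ratios used a pseudocount of 1 and a floor of a mean of 10 counts. Members were the listed subunits; in each other list, cell type markers apart, the gene at least 2-fold off, or else the one with the largest mean ratio, was named, with compared genes within 100 kb of EMC10, head-to-head partners and the 5 genes most like EMC10. The values of 1 head-to-head partner are not reported here. Members and lists were chosen with earlier results of these data known. Functions were checked on simulated data. Alternatives were other scalings, pseudocounts, floors, values per kb and centring on 20 neighbours. Python 3.11.15, numpy 2.4.6, pandas 2.3.3 and matplotlib 3.10.9 were used.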

Additional observations from a re-analysis of the deposited data

How the results depend on the processing

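No paired analysis was possible because the table holds 1 mean per group; for the same reason no replicate could be left out, and depth sets no limit that can be stated. EMC10 stayed at least 2-fold lower in clone 1 under the 6 alternatives that can alter a ratio, with 1 member called in each. The list was picked for that low value, and its deposited ratio of 151.6 could hardly fall under 2-fold, so this outcome is no evidence of stability. In clone 2, 0 members were 2-fold off under these 6. The other alternatives change the floor, which all members pass, and so cannot move their values. The size of the EMC10 ratio depends on the pseudocount, by construction. Its log2 ratio of clone 1 to control was -6.59 with a pseudocount of 0.5, -4.53 with 5 and -3.60 on values per kb. That of clone 2 to clone 1 was 5.86, 3.83 and 2.94. A single ratio counted as moved when it differed by at least 0.2321 for genes of 50 to 200 counts, or 0.1765 for those of 200 to 1000. These limits were taken from the spread between the clones. For the medians of the other 9 members a narrower limit of 0.0774 was used. Centring on 20 neighbours moved the medians of the other 9 members to -0.0703 in clone 1, -0.0648 in clone 2 and -0.0528 for clone 2 to clone 1; of their 18 single ratios it moved 3, those of EMC2 in both clones (-0.51 and -0.65) and of EMC3 in clone 2 (-0.38). The other 5 alternatives that can alter a ratio moved 0 of 90. That outcome was nearly fixed in advance, since at these counts such settings shift a ratio by far less than the limits. With a pseudocount of 5, EMC7 in clone 1 went from 0.38 to 0.37. Quantile normalization took EMC6 in clone 2 from 0.39 to 0.34.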
